A study of Homo sapiens with 18 samples.

Results

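Cells of MSTO-211H, an established line of human malignant mesothelioma, were compared after 24 h and after 8 h with piroxicam and cisplatin together (P/C). The comparison rests on 4 of the 18 HGU133A arrays of the series, chosen by their titles: replicates 1 and 3 of P/C at 24 h and replicates 1 and 3 of P/C at 8 h. It covers the 22283 probe sets of the array. P/C cells received 760 µM piroxicam, an anti-inflammatory inhibitor of cyclooxygenases, and 4.5 µg/mL cisplatin, a platinum drug that binds to DNA. The same 2 times were measured in untreated cells (2 arrays at each time), in cells with 760 µM piroxicam alone (P, 2 arrays at 8 h and 3 at 24 h) and in cells with 4.5 µg/mL cisplatin alone (C, 2 arrays at 8 h and 3 at 24 h). All groups are cultures of this one line, and the study chose the earlier time as one without detectable apoptosis and the later as one with it. The methods call the replicates biological, but what a replicate number shares is not stated, so the p values measure a spread between arrays. That spread was estimated from all 18 arrays together and not from these 4 alone.

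Cisplatin adducts stall DNA replication and activate the transcription factor p53, whose targets include CDKN1A, the gene of the cyclin-dependent kinase inhibitor p21. Genes of mitosis are transcribed late in the cell cycle, mostly through promoters with CCAAT boxes bound by NF-Y and through the factors FOXM1 and MYBL2, and p21 is known to lower their transcription. Interleukins and chemokines such as IL1B and CXCL8 are targets of NF-kappaB and are released by stressed mesothelial cells.

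Values are log2 signals made by the authors with GCRMA, so a difference of 1 is a factor of 2 in signal. Tested were the 3057 probe sets whose interquartile range over the 18 arrays reached 0.25 and whose signal reached 100 (6.64 as log2) in 25% of arrays or more. A call of a change in limma needed a Benjamini-Hochberg adjusted p no higher than 0.05 and a log2 fold change of 1 or more either way. Of 16 mesothelial and keratin markers listed, 15 were annotated and 4 reached a signal of 100 in an array, among them KRT8, KRT18 and VIM, while MSLN, CALB2 and WT1 had no array at 100. None of 14 annotated leukocyte and erythroid markers and none of 13 stromal and endothelial markers reached it. The summed signal of the mesothelial list was 8160 to 8470 in the P/C arrays at 8 h and 7060 to 8980 at 24 h, that of the leukocyte list 56.1 to 60.8 and 54.1 to 56.4, and that of the stromal list 114 to 144 and 177 to 182.

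From 8 h to 24 h of P/C, 5 of 9 tested inflammatory genes such as IL1B and 2 of 15 tested p53 targets rose, while 11 of 43 tested mitosis genes such as CCNA2 and 2 of 30 tested DNA replication genes fell. Of the 3057 probe sets tested, 102 were called (3.34%), 49 higher at 24 h (1.6%) and 53 lower (1.73%). The median log2 fold change over all tested probe sets was −0.03, and 686 had an unadjusted p below 0.05. Both 24 h arrays lay above both 8 h arrays in 618 probe sets (20.2%) and below both in 677 (22.1%), and this was so in all 49 called rises and all 53 called falls. With 1 gene symbol each, 94 of the called probe sets stood for 86 genes. In RNA of whole cultures fewer cells of a state and less RNA per cell cannot be told apart.

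**Figure D1:**
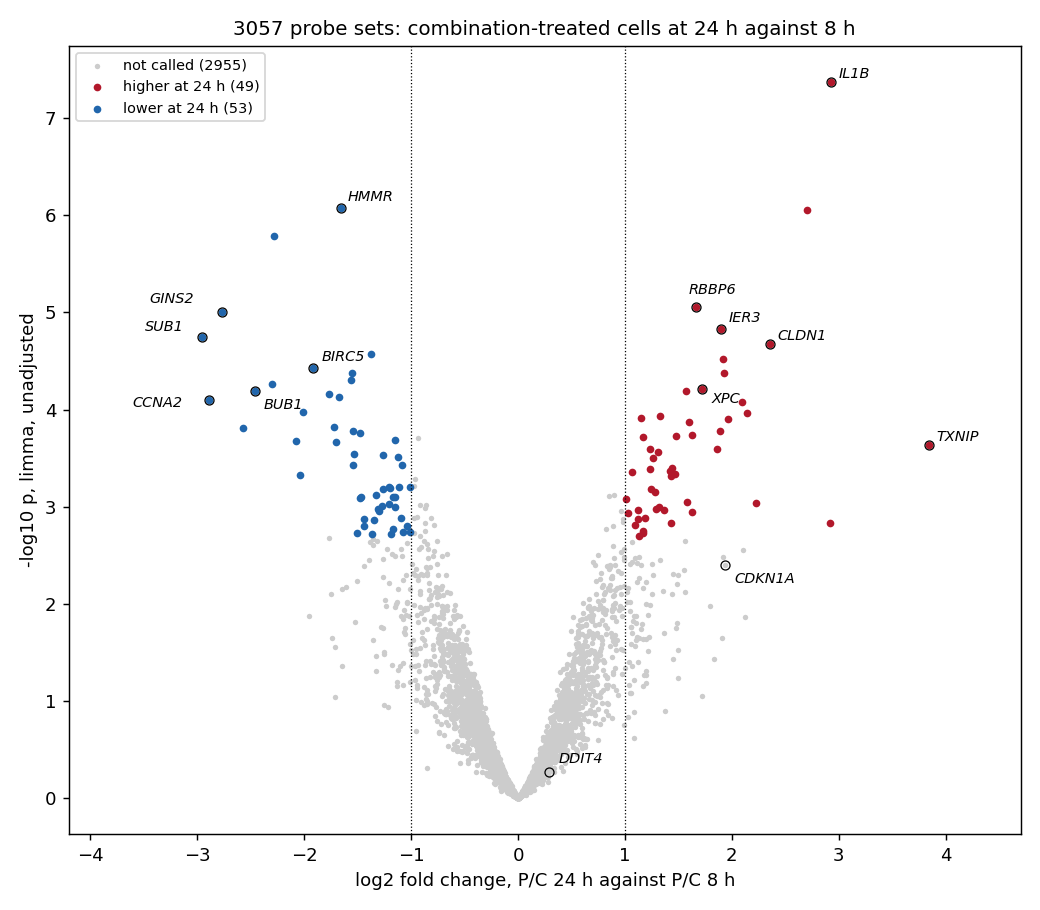
Log2 fold change of P/C 24 h against P/C 8 h (x axis) and −log10 of the unadjusted limma p (y axis) of the 3057 tested probe sets. Red points are the 49 called rises, blue points the 53 called falls, grey points were not called, dotted lines mark a change of 1 either way, and circles mark named genes. IL1B stands highest, TXNIP has the largest rise at 3.85 and SUB1 the largest fall at −2.95, while CDKN1A and DDIT4 lie among the grey points.

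The P/C arrays were less alike within their groups than those of the other groups. The root mean square SD between arrays over the tested probe sets was 0.47 for P/C at 24 h and 0.42 for P/C at 8 h, against 0.27 to 0.38 in the other 6 groups. The tests use 1 spread per probe set shared by all groups, on average smaller than that of the P/C groups. The P/C 24 h arrays differed by at least 1 in 356 probe sets and the P/C 8 h arrays in 287, compared with 104 for untreated cells at 8 h and 108 at 24 h. As deviations from the mean of the 18 arrays, P/C 24 h replicate 1 correlated across probe sets most with C 24 h replicate 3 (r = 0.76) and only weakly with its own partner (r = 0.27). P/C 24 h replicate 3 correlated most with the P 24 h arrays (r = 0.60 to 0.78). The P/C 8 h arrays correlated negatively with each other (r = −0.20) and most with the P 8 h array of their own number (r = 0.56 for replicate 1 and 0.63 for replicate 3). Whether labels or RNA were exchanged was not tested. These correlations are across probe sets, which are not independent, and describe the arrays only. Leaving out P/C 24 h replicate 1 gave 166 calls, of which 59 were among the 102, and leaving out its partner gave 66, of which 38 were. Leaving out P/C 8 h replicate 1 gave 97, with 58 of the 102, and leaving out the other P/C 8 h array gave 6. In that last setting 38 of 42 called genes named below or by the rule missed the threshold (adjusted p of 0.0586 to 0.321), all with the same direction, and IL1B, FOXM1, HMMR and RBBP6 kept their calls. Array weights, which give arrays far from their group mean less say, were equal within each P/C group (0.463 at 24 h and 0.593 at 8 h). That equality is fixed by the design, because both arrays of a P/C group lie equally far from their mean. So this setting cannot show whether a single P/C array was the outlying one of its group. Array weights ended 37 of the 42 calls (adjusted p of 0.0605 to 0.408), a fit of the P/C arrays alone 23 and the absence of a filter 19, again with no change of direction. Arrays of 24 h and of 8 h share no label for a scan or hybridisation batch here, so a batch of all arrays of one time cannot be told apart from the time itself.

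The called changes were present in both 24 h arrays, with different sizes. Relative to the P/C 8 h mean, 37 of the 49 rises and 34 of the 53 falls were at least 1 in each 24 h array. The called rises had a median change of 1.60 in replicate 1 and 1.41 in replicate 3, and the called falls −1.26 and −1.62. Mitosis and replication genes lay lower in replicate 3 than in replicate 1, with list medians of −1.29 against −0.42 and −0.87 against −0.34. For p53 target genes the medians were 0.91 in replicate 1 and 0.72 in replicate 3.

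**Figure D2:**
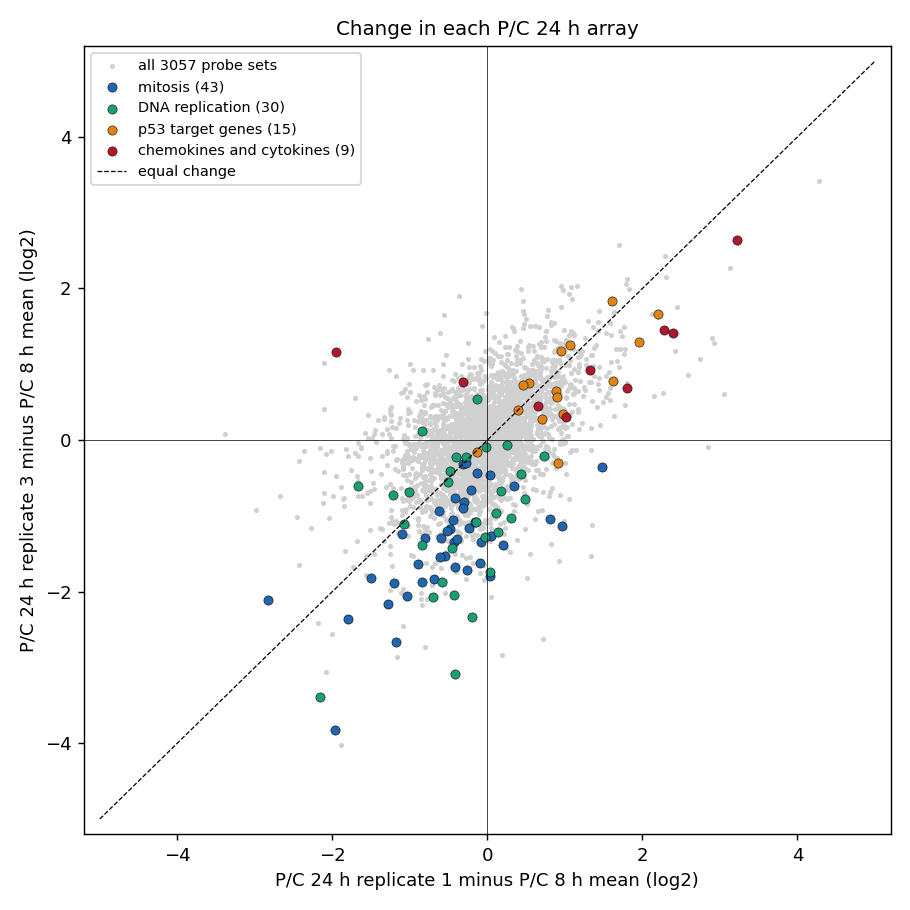
Change of each tested probe set from the P/C 8 h mean in P/C 24 h replicate 1 (x axis) and replicate 3 (y axis), in log2 units, with grey points for all 3057 probe sets and colours for 4 gene lists. Blue mitosis points (43 genes) lie mostly below the dashed line of equal change, and the p53 targets (15 genes) lie mostly above 0 on both axes.

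Inflammatory transcripts made up the group with the highest share of calls. Of 9 tested genes of a list of chemokines, cytokines and NF-kappaB genes, 5 rose (55.6%, against 1.6% of all probe sets) and none fell, with a list median of 1.12 against −0.03 over all probe sets. IL1B, the gene of the secreted cytokine interleukin-1 beta (probe set 205067_at), had log2 signals of 6.77 and 7.32 at 8 h and of 10.26 and 9.69 at 24 h. Both 24 h arrays were far above both 8 h arrays. The log2 fold change was 2.93 (SE 0.30, limma adjusted p = 0.000129), and a second probe set, 39402_at, gave 2.70 (adjusted p = 0.000892). In untreated cells IL1B was at 8.50 and 8.46 at 8 h and at 9.17 and 9.56 at 24 h, so P/C arrays lay below the untreated ones at 8 h and above them at 24 h.

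IL1A, the gene of the related cytokine interleukin-1 alpha, was at 7.61 and 8.13 at 8 h and at 10.15 and 9.32 at 24 h. The groups did not overlap, and the log2 fold change was 1.86 (SE 0.40, limma adjusted p = 0.0177). IER3, an early response gene that modulates apoptosis, was at 7.17 and 7.27 at 8 h and at 9.61 and 8.63 at 24 h. It rose by 1.90 (SE 0.31, adjusted p = 0.00646), and its 24 h arrays differed by more than its 8 h arrays. NFKB1, which encodes a subunit of NF-kappaB, rose by 1.25 (SE 0.29, adjusted p = 0.0303), from 6.84 and 6.70 to 8.57 and 7.45. CXCL8, the gene of the neutrophil chemokine interleukin-8, was named after its values were seen, and rose by 1.12 (adjusted p = 0.0408). The other 4 list members were not called: CXCL3 stood at 8.52 and 8.33 at 8 h and at 6.47 and 9.58 at 24 h, on either side, and CXCL1, CXCL2 and NFKBIA had log2 fold changes of 0.66, 0.23 and 0.56. The calls of IL1A, NFKB1 and CXCL8 were lost without replicate 1 of P/C at 24 h or at 8 h, those of IL1A, IER3, NFKB1 and CXCL8 without P/C 8 h replicate 3 and that of CXCL8 without P/C 24 h replicate 3 (adjusted p of 0.0586 to 0.165), while IL1B was called in each of these settings with a log2 fold change of 2.64 to 3.21.

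**Figure D3:**
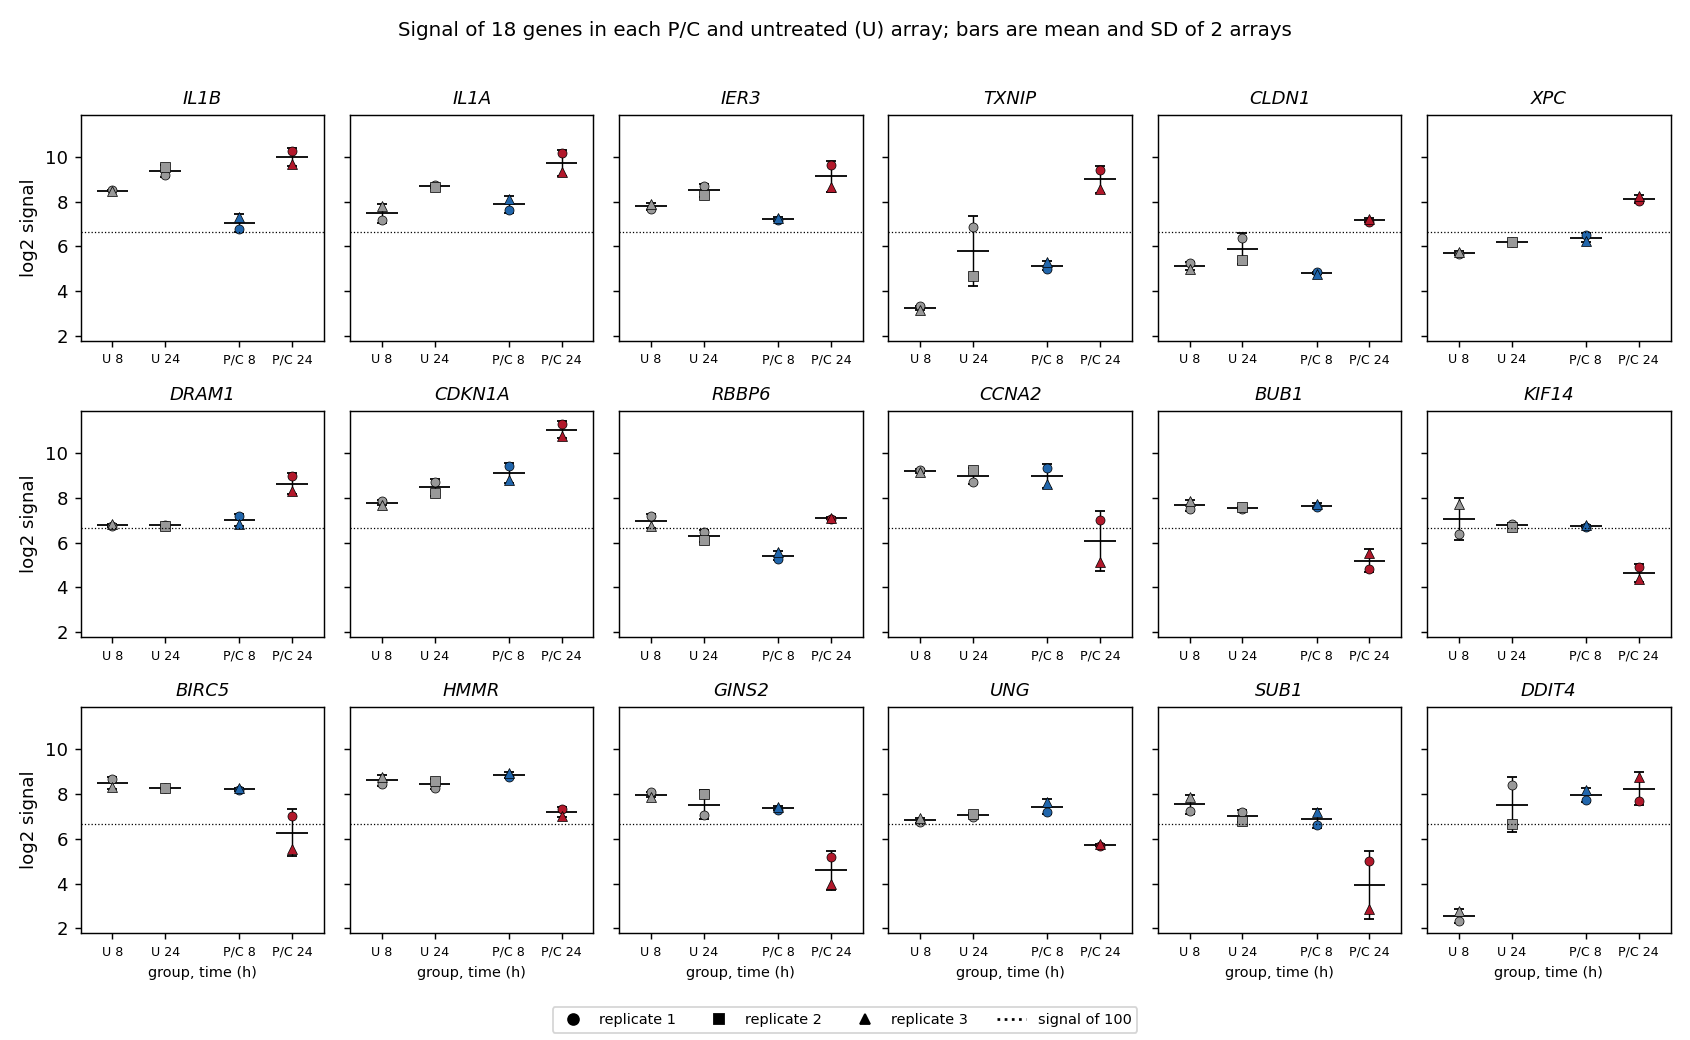
Log2 signal (y axis) of 18 genes in the arrays of untreated cells (grey, U) and of P/C cells at 8 h (blue) and 24 h (red), with symbols for the replicate number, horizontal bars for the mean and error bars for the SD of 2 arrays; the dotted line is a signal of 100. In the P/C arrays CCNA2, BUB1, KIF14, GINS2, UNG and SUB1 lie near or above the dotted line at 8 h and mostly below it at 24 h. In untreated cells these genes lie above it at 24 h, and DDIT4 is high in both P/C groups.

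Of 15 tested p53 targets 2 rose (13.3%, against 1.6% of all probe sets) and none fell. Their median log2 fold change was 0.73 against −0.03, and in 13 of the 15 both 24 h arrays lay above both 8 h arrays, as in 20.2% of all probe sets. XPC, which recognises DNA damage in nucleotide excision repair, was at 6.53 and 6.26 at 8 h and at 8.00 and 8.23 at 24 h. The 24 h arrays were alike, and the rise was 1.72 (SE 0.32, limma adjusted p = 0.0104). DRAM1, a lysosomal membrane protein that takes part in p53-induced autophagy, was at 7.19 and 6.82 at 8 h and at 8.97 and 8.29 at 24 h, a rise of 1.62 (SE 0.41, adjusted p = 0.0378).

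CDKN1A had the largest change of these genes but missed the threshold. It stood at 9.41 and 8.77 in the P/C arrays at 8 h and at 11.30 and 10.76 at 24 h. Both 24 h arrays were above both 8 h arrays, with a log2 fold change of 1.94 (SE 0.57, limma adjusted p = 0.0702). Its arrays in the C group at 24 h were spread widely, at 8.66, 10.71 and 11.46, and these enter the shared estimate of the spread. It was not called with any 1 of the P/C arrays left out (adjusted p of 0.0861 to 0.28), with array weights (0.29) or without a filter (0.183). In a fit of the P/C arrays alone the adjusted p was 0.0293, and with replicate 1 of P/C and of C at 24 h both left out, a setting added after the data were seen, the change was 1.67 (adjusted p = 0.00934). Among the other targets SESN1, an antioxidant protein that restrains mTORC1, had a log2 fold change of 1.06, ZMAT3, an RNA-binding protein, 1.16, and PPM1D, a phosphatase that turns p53 signalling off, 1.20, with adjusted p values of 0.149, 0.132 and 0.253. The pro-apoptotic genes BAX and PMAIP1 were at 0.77 and 0.49, with adjusted p values of 0.183 and 0.602. The rise of DRAM1 lost its call whichever of the 4 P/C arrays was left out (1.29 to 1.96, adjusted p of 0.0507 to 0.18), and that of XPC when P/C 8 h replicate 3 was (1.59, adjusted p = 0.0851). Array weights ended both calls.

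Of the gene lists, mitosis held the most falls. Of 43 tested, 11 fell (25.6% of the list, against 1.73% of all probe sets) and none rose. The list median was −0.86 against −0.03 over all probe sets, and in 30 of the 43 both 24 h arrays lay below both 8 h arrays, as in 22.1% of all probe sets. The fallen genes spanned several steps of division: cyclins CCNA2 and CCNB1, the checkpoint kinase BUB1, the motors KIF14 and KIF23, the spindle proteins HMMR and DLGAP5, the passenger protein and apoptosis inhibitor BIRC5 (survivin), the cytokinesis factor ECT2, the kinase PBK and the transcription factor FOXM1. KIF23, DLGAP5, ECT2 and PBK were named after their values were seen. Over the same times 16 of the 43 mitosis genes fell with P alone (median −0.98), against 7.1% of all probe sets. None fell with C (median −0.35), where 0.785% of all probe sets did, or without drug (median −0.19), where 0% did. With so few falls in these groups, the absence of mitosis calls there does not set these genes apart.

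CCNA2, the cyclin of S phase and of entry into mitosis (203418_at), was at 9.34 and 8.59 at 8 h and at 7.01 and 5.14 at 24 h. Both 24 h arrays were lower than both 8 h arrays, replicate 3 by far the more. The log2 fold change was −2.90 (SE 0.55, limma adjusted p = 0.011), and the probe set 213226_at gave −2.28 (adjusted p = 0.00125). BUB1, a kinase of the spindle checkpoint, was at 7.57 and 7.73 at 8 h and at 4.82 and 5.54 at 24 h. Here replicate 1 was the lower of the 24 h arrays, and the fall was −2.46 (SE 0.46, adjusted p = 0.0104). KIF14, a kinesin of cytokinesis, went from 6.70 and 6.76 to 4.93 and 4.37, a change of −2.08 (SE 0.43, adjusted p = 0.016). Its 24 h values lay below a signal of 100.

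BIRC5 was at 8.16 and 8.24 at 8 h and at 7.02 and 5.54 at 24 h, a log2 fold change of −1.92 (SE 0.34, limma adjusted p = 0.00924). The 8 h arrays were nearly equal and the 24 h arrays were apart. FOXM1, which drives transcription of mitosis genes, was at 7.74 and 6.83 at 8 h and at 6.0 and 5.12 at 24 h, with −1.72 (SE 0.35, adjusted p = 0.0152). HMMR, a microtubule-binding protein of the spindle, was at 8.74 and 8.94 at 8 h and at 7.34 and 7.02 at 24 h. Its change of −1.66 had the smallest SE of these falls (0.21, adjusted p = 0.000892), with −1.57 (adjusted p = 0.01) from its second probe set. CCNB1, the cyclin of mitotic entry, was at 9.31 and 9.55 at 8 h and at 8.39 and 7.38 at 24 h, with −1.55 (SE 0.31, adjusted p = 0.0152).

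The mitosis genes that were not called ranged from −1.36 for PRC1, a cytokinesis protein (adjusted p = 0.0562), to 0.56 for KIF18A, a kinesin of the spindle (adjusted p = 0.477). TTK and BUB1B, both checkpoint kinases, were at −1.26 and −1.05 (adjusted p = 0.0661 and 0.0782). CDK1, the kinase bound by these cyclins, stood at a change of −0.59 (adjusted p = 0.191), and TPX2 and KIF2C, both spindle assembly factors, of −0.11 and −0.09. TPX2 was at 8.99 and 8.01 at 8 h and at 9.31 and 7.46 at 24 h, so its arrays overlapped between the times. Of the 11 mitosis calls 8 were lost when P/C 24 h replicate 3 was left out and 9 when P/C 8 h replicate 3 was, where FOXM1 and HMMR were left (adjusted p of the lost calls 0.0606 to 0.253). Without P/C 8 h replicate 1 the calls of CCNA2, FOXM1, KIF23 and PBK were lost (0.0505 to 0.0789), and without P/C 24 h replicate 1 that of ECT2 (adjusted p = 0.0504). Array weights ended 9 of the 11 calls, a fit of the P/C arrays alone 8 and the absence of a filter 4.

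The promoters of the fallen mitosis genes were read from RefSeq sequences on GRCh38.p14, as the 250 bases before each start. Of the 11 genes 8 were matched, and BIRC5, FOXM1 and PBK were not. The motifs CCAAT, to which NF-Y binds, and TTTGAA, a form of the cell cycle homology element, were searched on both strands. CCAAT was found in 8 of the 8 (100%) and TTTGAA in 4 (50%), and in none of the 8 did the motifs overlap each other. Among all 27305 promoters of the same length 33% held CCAAT and 13.6% held TTTGAA, and among 1900 matched genes tested on the array 37.4% and 9.63%. Among the 34 matched of the 43 tested mitosis genes, whether they fell or not, the shares were 73.5% and 55.9%. Among the 37 matched genes of all called falls the shares were 48.6% and 18.9%, and among those of all called rises 26.3% and 7.89%. The 37 include the 8 mitosis genes, so their shares are not separate from those above and do not describe the other falls. A match is a description of letters in this window and not a site.

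The promoters of the 3 genes with the largest falls among those matched, and of HMMR with the smallest adjusted p, are shown to let a reader see where these motifs stand. They are written 5′ to 3′ on the strand of the gene, up to the base before the start, with both motifs, and their reverse complements, in capitals. CCNA2 (chr4:121823884-121824133, minus strand) has 1 CCAAT box, on the reverse strand. BUB1 (chr2:110678064-110678313, minus strand) has 2, 1 in each orientation, and KIF14 (chr1:200620752-200621001, minus strand) has 1. HMMR (chr5:163460382-163460631, plus strand) has 5, of which 2 share bases, and 2 copies of TTTGAA side by side.
CCNA2: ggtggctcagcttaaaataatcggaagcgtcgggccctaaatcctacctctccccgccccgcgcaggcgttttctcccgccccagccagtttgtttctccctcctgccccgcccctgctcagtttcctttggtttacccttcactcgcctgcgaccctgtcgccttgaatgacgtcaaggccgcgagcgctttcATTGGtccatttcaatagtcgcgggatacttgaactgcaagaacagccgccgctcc
BUB1: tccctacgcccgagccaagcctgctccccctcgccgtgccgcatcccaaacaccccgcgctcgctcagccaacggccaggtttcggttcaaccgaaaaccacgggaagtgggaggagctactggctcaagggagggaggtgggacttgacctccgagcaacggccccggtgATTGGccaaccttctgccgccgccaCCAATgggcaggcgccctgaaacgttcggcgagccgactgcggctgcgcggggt
KIF14: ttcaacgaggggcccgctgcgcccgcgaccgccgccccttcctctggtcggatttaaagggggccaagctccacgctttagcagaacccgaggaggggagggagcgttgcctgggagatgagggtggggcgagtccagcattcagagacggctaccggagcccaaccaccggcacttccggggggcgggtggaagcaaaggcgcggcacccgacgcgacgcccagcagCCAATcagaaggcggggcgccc
HMMR: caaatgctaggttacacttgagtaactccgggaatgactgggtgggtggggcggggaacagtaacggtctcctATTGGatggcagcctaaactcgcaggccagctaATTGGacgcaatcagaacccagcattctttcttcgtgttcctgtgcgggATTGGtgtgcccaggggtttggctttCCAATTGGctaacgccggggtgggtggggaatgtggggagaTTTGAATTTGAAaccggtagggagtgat

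Of 30 tested genes of DNA replication 2 fell (6.67%, against 1.73% of all probe sets) and none rose, with a median of −0.57 against −0.03. GINS2, a subunit of the replicative helicase, was at 7.30 and 7.42 at 8 h and at 5.21 and 3.98 at 24 h. Both 24 h values were far below the 8 h values and below a signal of 100, and the log2 fold change was −2.77 (SE 0.44, limma adjusted p = 0.00508). RFC5, a subunit of the clamp loader, went from 7.86 and 8.47 to 7.32 and 6.78, a fall of −1.11 (SE 0.26, adjusted p = 0.0303). CDC6, which loads the helicase at origins, had a log2 fold change of −1.75 that was not called (adjusted p = 0.097), with 24 h arrays at 6.24 and 3.57. PCNA, the sliding clamp, was at 0.09 and MCM7, a helicase subunit, at −0.01. MCM4, another helicase subunit, was at −0.37 in its brighter probe set, and a dimmer one was called lower (−1.31, adjusted p = 0.0375). With P alone 18 of the 30 replication genes fell (median −1.12), against 7.1% of all probe sets. With C 1 fell (median −0.38), against 0.785% of all probe sets.

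Of 17 tested genes of DNA damage sensing and repair 1 rose and 1 fell (11.8% called, against 3.34% of all probe sets), with a median of −0.16. The riser was XPC. UNG, the uracil-DNA glycosylase that removes uracil from DNA, was at 7.19 and 7.66 at 8 h and at 5.69 and 5.75 at 24 h. Its 24 h arrays were nearly equal, and it fell by 1.70 (SE 0.36, limma adjusted p = 0.0162). The calls of RFC5 and UNG were lost without P/C 24 h replicate 3, and those of GINS2, RFC5 and UNG without P/C 8 h replicate 3 (adjusted p of 0.0561 to 0.201 over these). Array weights ended all 3 calls.

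Among 7 tested death receptor and caspase genes 1 fell (14.3%, against 1.73% of all probe sets) and none rose. The gene was CASP8, the initiator caspase of death receptors, which was at 6.67 and 7.50 at 8 h and at 5.04 and 6.06 at 24 h, a log2 fold change of −1.54 (SE 0.33, limma adjusted p = 0.0189). Its call was lost without P/C 24 h replicate 1 (−1.03, adjusted p = 0.0959) or P/C 8 h replicate 3 (−1.12, adjusted p = 0.151). TNFRSF10B, the TRAIL receptor, was at 8.77 and 8.94 at 8 h and at 9.39 and 9.61 at 24 h, with 0.64 (adjusted p = 0.179). Of 6 tested BCL2 family genes none was called, with a median of 0.56, and in 5 of them both 24 h arrays lay above both 8 h arrays, as in 20.2% of all probe sets. BNIP3L, a mitophagy receptor, was the largest at 1.35 (adjusted p = 0.0945). GSDME, whose product forms membrane pores after cleavage by caspase-3, belongs to no list and was named after its values were seen; it was at 7.19 and 6.97 at 8 h and at 8.52 and 8.79 at 24 h, a rise of 1.57 (adjusted p = 0.0104) whose call was lost without either replicate 3 of P/C (adjusted p = 0.0507 and 0.0851).

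The single largest rise was that of TXNIP, an inhibitor of thioredoxin that responds to glucose and stress. Its probe set 201009_s_at was at 4.99 and 5.29 at 8 h and at 9.42 and 8.56 at 24 h. The 8 h values lay below a signal of 100 and the 24 h values well above it. The log2 fold change was 3.85 (SE 0.81, limma adjusted p = 0.0167), while the brighter probe set 201010_s_at gave 1.91 (adjusted p = 0.0655). Over the same times 201009_s_at rose by 2.53 in untreated cells (not called), by 2.58 with P and by 4.71 with C (both called). Its change with P/C was not shown to differ from that of untreated cells (difference 1.31, adjusted p = 0.701). BTG1, an antiproliferative gene, rose by 1.43 (SE 0.33, adjusted p = 0.0255), from 8.81 and 8.68 to 10.17 and 10.19, and by 1.09 in its second probe set. The first probe set also rose by 1.36 with P and by 1.71 with C (both called). CLDN1, a tight junction protein, was at 4.85 and 4.79 at 8 h and at 7.11 and 7.24 at 24 h. It was close to equal within each time and rose by 2.36 (SE 0.39, adjusted p = 0.0071). CES2, a carboxylesterase that activates some prodrugs, rose by 1.89 and 1.62 in its 2 probe sets (adjusted p = 0.0152 and 0.0157). The calls of TXNIP and BTG1 were lost without P/C 24 h replicate 1, P/C 8 h replicate 1 or P/C 8 h replicate 3, that of CLDN1 without P/C 8 h replicate 3, that of BTG1 also without P/C 24 h replicate 3, and that of CES2 without P/C 24 h replicate 1 or P/C 8 h replicate 3 (adjusted p of 0.0511 to 0.123).

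Several of the largest changes came from a dim probe set of a gene with brighter ones. SQSTM1, the autophagy receptor p62, rose by 2.14 in 213112_s_at, from 5.92 and 5.74 to 7.53 and 8.41 (SE 0.42, limma adjusted p = 0.0131). Its brighter probe set 201471_s_at was at 10.38 and 10.15 at 8 h and at 11.18 and 11.32 at 24 h, a change of 0.99 (adjusted p = 0.0675). IFI16, a sensor of DNA in the nucleus, rose by 2.22 (adjusted p = 0.0361), against 0.67 and 0.77 in the brighter probe sets. BCLAF1, a transcription and splicing factor linked to apoptosis, rose by 2.10 (adjusted p = 0.011), against 0.06 in the brightest. APLP2, a relative of the amyloid precursor protein, rose by 1.92 (adjusted p = 0.00924), against 0.68 and 0.81. SUB1, a transcription coactivator, had the largest fall of all, at 6.59 and 7.21 at 8 h and 5.02 and 2.88 at 24 h (log2 fold change −2.95, SE 0.49, adjusted p = 0.00681), but −0.71 and −0.19 in its brighter probe sets. PSMD12, a proteasome subunit, fell by 1.77 (adjusted p = 0.0106), against −0.51 (adjusted p = 0.255) in the brighter one. The sign was the same in all tested probe sets of these genes, and the size for the gene was not settled by them. All 6 dim probe sets lost their call without P/C 8 h replicate 3, those of SQSTM1, IFI16 and PSMD12 without P/C 24 h replicate 3, and that of IFI16 also without replicate 1 of P/C at 24 h or 8 h (adjusted p of 0.0507 to 0.15).

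Further falls were single genes in 3 lists of protein folding and translation. These made up 5.88% of the chaperones, 11.1% of the unfolded protein response genes and 5.56% of the initiation factors, against 1.73% of all probe sets. With 1 call each, these shares describe single genes and not the lists. HSPE1, the mitochondrial cochaperonin, was at 10.36 and 10.84 at 8 h and at 9.57 and 9.33 at 24 h, a fall of −1.15 (SE 0.28, limma adjusted p = 0.0368), and was the only call among 17 chaperones, whose median was −0.18. MANF, a secreted factor of the endoplasmic reticulum stress response, fell by 1.18 (adjusted p = 0.0483) and was the only call among 9 genes of the unfolded protein response (median 0.01). EIF4E, which binds the mRNA cap, fell by 1.51 (adjusted p = 0.0483), from 8.13 and 9.36 to 7.07 and 7.41, alone among 18 initiation factors (median 0.06). These counts take the brightest probe set of a gene, and dimmer ones of CANX, a chaperone of the endoplasmic reticulum, and of the initiation factor EIF3A were called higher, at 1.42 and 1.23 (adjusted p = 0.0242 and 0.0235). Beyond the lists, SHCBP1, a midbody protein, fell by 2.01 (adjusted p = 0.0131) and ANXA10, an annexin, by 2.04 (adjusted p = 0.0251). All of these calls were lost without P/C 8 h replicate 3, those of EIF4E, MANF, HSPE1 and SHCBP1 without P/C 24 h replicate 3, those of ANXA10, EIF4E and MANF without P/C 24 h replicate 1 and those of ANXA10 and MANF without P/C 8 h replicate 1 (adjusted p of 0.0623 to 0.321).

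In further large lists no probe set that stood for a gene was called, though dimmer ones of PSMD12 (above) and of the RNA-binding proteins HNRNPD and RBM25 were, at −1.44 and 1.17 (limma adjusted p = 0.0436 and 0.0477), against −0.51 and 0.09 in the brighter ones. For 10 aminoacyl-tRNA synthetases, which charge tRNAs and are induced by amino acid stress, the median was 0.62. In 7 of the 10 both 24 h arrays were above both 8 h arrays, as in 20.2% of all probe sets. The log2 fold changes reached 0.89 for AARS1, which was not called (limma adjusted p = 0.112). For 29 splicing and RNA-binding proteins the median was −0.30, for 22 genes of ribosome biogenesis 0.09, for 22 of oxidative phosphorylation −0.17 and for 17 proteasome subunits −0.21. For 8 factors of the integrated stress response the median was −0.11 in P/C 24 h replicate 1 and 0.82 in replicate 3, and for 3 metallothioneins −2.01 and −0.14, so these groups rest on 1 array each. The metal-binding protein MT1X, for instance, was at 9.54 and 9.21 at 8 h and at 6.94 and 9.11 at 24 h.

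**Figure D4:**
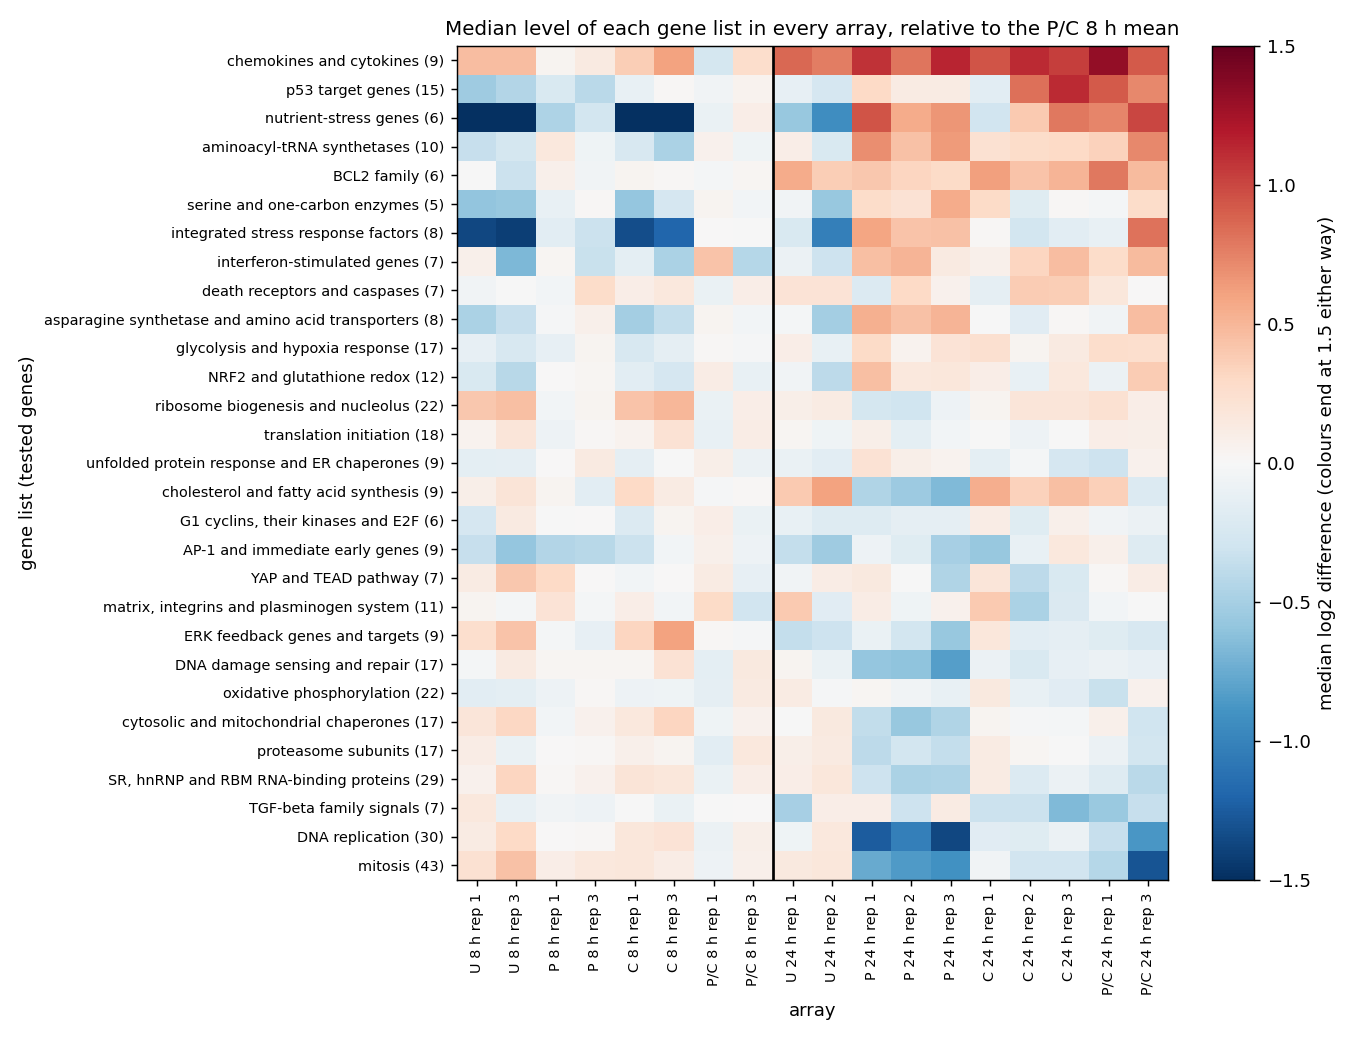
Median over the tested genes of each list of the log2 difference from the P/C 8 h mean, for every array (columns, 8 h on the left of the black line) and every list with at least 5 tested genes (rows, ordered by the median change from 8 h to 24 h of P/C). Mitosis and DNA replication are low in P/C 24 h replicate 3 and the P 24 h arrays and less so in P/C 24 h replicate 1, and p53 target genes are high in both P/C 24 h arrays and in 2 of 3 C 24 h arrays.

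Few probe sets changed in untreated cells over the same 16 h. There 3 of the 3057 probe sets were called between the times (0.0981%), all higher at 24 h, and 2 of them were among the 49 rises of P/C. Over the 49 P/C rises the median log2 fold change was 1.43 with P/C and 0.36 without drug. Of these, 40 also had a positive change without drug (81.6%, against 51.3% of all tested probe sets). Over the 53 falls the medians were −1.44 and −0.22, and 39 had a negative change without drug (73.6%, against 48.7%). None of the arrays is shared by these contrasts. A test of the difference between the time changes called 2 probe sets (0.0654%), DDIT4 and RBBP6, with 323 at an unadjusted p below 0.05. For IL1B this difference was 2.05 (SE 0.42, limma adjusted p = 0.144) and for HMMR −1.48 (SE 0.30, adjusted p = 0.144), so that most rises and falls with P/C were not shown to differ from those of untreated cells.

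DDIT4, an inhibitor of mTORC1 that is induced by stress, did not change with P/C between the times by this test. It was at 7.73 and 8.16 at 8 h and at 7.70 and 8.77 at 24 h, and the arrays overlapped (log2 fold change 0.29, SE 0.46, limma adjusted p = 0.742). In untreated cells it was at 2.35 and 2.79 at 8 h and at 8.39 and 6.65 at 24 h, a fitted rise of 4.95 (SE 0.46, adjusted p = 3.23e-05). Both untreated 8 h values were near the medians of the arrays (2.72 to 2.83), far below a signal of 100, so the size of this rise and of the difference from P/C depends on the background correction and is not settled here. The difference between these time changes was −4.66 (SE 0.65, adjusted p = 0.00702). With P alone DDIT4 was also high at both times, at 7.73 and 7.72 at 8 h and at 8.58, 8.52 and 8.68 at 24 h. Its change of 0.87 with P was not called. RBBP6, a ubiquitin ligase that binds the retinoblastoma protein and p53, was at 5.28 and 5.57 with P/C at 8 h and at 7.05 and 7.12 at 24 h. It rose by 1.66 (SE 0.26, adjusted p = 0.00508), whereas it stood at 7.20 and 6.76 and then at 6.47 and 6.10 without drug. P/C arrays were thus below the untreated ones at 8 h and above them at 24 h, and the difference was 2.36 (SE 0.36, adjusted p = 0.013). The P/C values at 8 h and the untreated values at 24 h lay below a signal of 100, so its size also depends on the background correction. With P alone RBBP6 was likewise low at 8 h, at 5.73 and 5.36, and stood at 6.32, 5.92 and 6.22 at 24 h. Both differences lost their call without untreated 8 h replicate 1 (adjusted p = 0.0821 and 0.14), and that of RBBP6 also without untreated 24 h replicate 2 or P/C 8 h replicate 1 (adjusted p = 0.142 and 0.113).

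**Figure D5:**
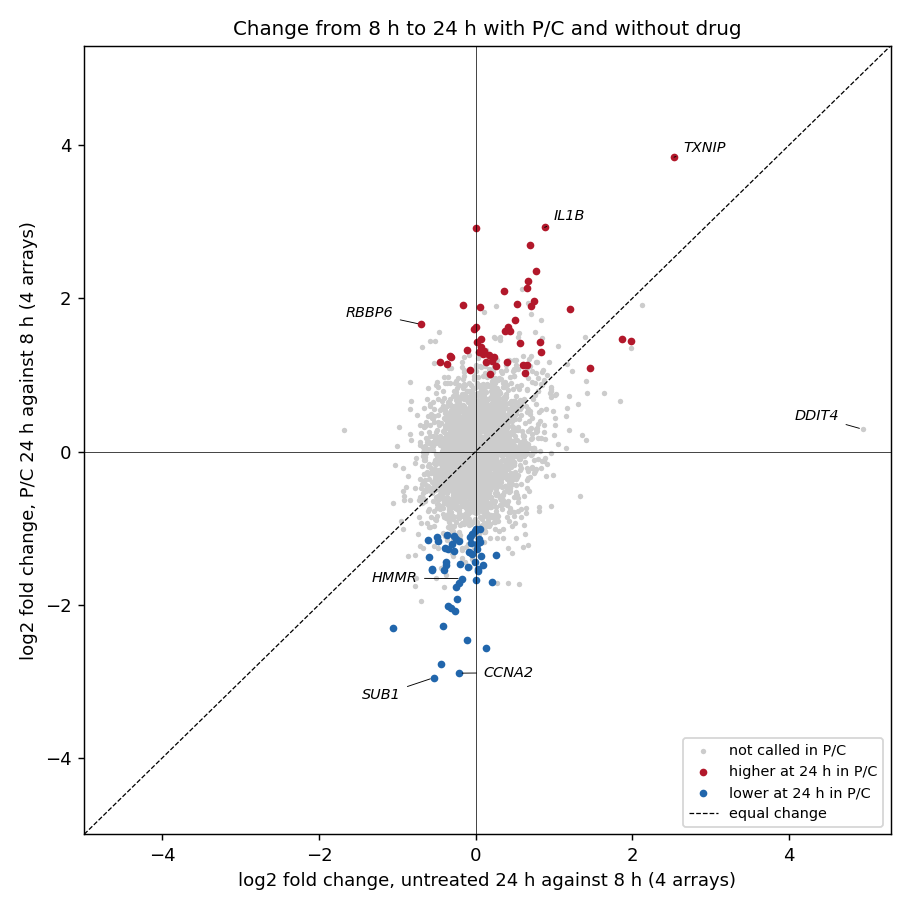
Log2 fold change from 8 h to 24 h in untreated cells (x axis, 4 arrays) and with P/C (y axis, 4 arrays) for the 3057 tested probe sets, with called rises of P/C in red and called falls in blue and a dashed line of equal change. The called falls lie mostly near 0 on the x axis, DDIT4 stands alone at the right with 4.95 and 0.29, and RBBP6 is on the upper left with −0.70 and 1.66.

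The single drugs shared part of these calls over the same times. With P 259 probe sets were called between 8 h and 24 h (8.47%), 42 higher (1.37%) and 217 lower (7.1%), and with C 49 (1.6%), 25 higher (0.818%) and 24 lower (0.785%). Of the 53 falls with P/C, 32 were also called with P (60.4% of the P/C falls and 14.7% of the P falls) and 6 with C (11.3% and 25%). Of the 49 rises, 14 were also called with P (28.6% and 33.3%) and 10 with C (20.4% and 40%). None of these was called in the opposite direction. The time change of GINS2 was −2.63 with P and −1.10 with C, and that of IL1B 1.73 and 1.92. HMMR was at −0.77 and −0.04, against −1.66 with P/C.

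Tests of the differences called few of these. Between the time changes of P/C and of P no probe set was called by limma (smallest adjusted p = 0.319), with 259 at an unadjusted p below 0.05, but 96 were called without P/C 24 h replicate 3. Between those of P/C and of C 1 was called (0.0327%), DDIT4, which rose by 4.33 with C, from 3.57 and 4.03, again below a signal of 100, to 8.61, 7.66 and 8.14, a difference of −4.04 (SE 0.62, adjusted p = 0.023), with 175 at an unadjusted p below 0.05. That call was lost without C 8 h replicate 1 (adjusted p = 0.25), C 8 h replicate 3, C 24 h replicate 3, either P/C 8 h array or P/C 24 h replicate 1 (adjusted p of 0.0524 to 0.0897 in these). A difference that misses the threshold with 2 to 3 arrays a group does not show that the drugs act alike.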

How the data were processed

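RNA of MSTO-211H cells was hybridised to HGU133A arrays, in triplicate by the methods, and the series holds 18 arrays. The methods state that arrays with outlying raw intensities were left out of the analysis. The authors made the deposited log2 signals with GCRMA, which corrects the background and normalizes between arrays. Its version is not given in the sources read, and raw intensities were not used. Because background correction spreads dim signals, fold changes of probe sets below a signal of 100 depend on it. Groups, times and replicate numbers came from the labels.

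Of 22283 probe sets, 68 controls were left out and the stated filter left 3057. The study's own set after a filter so described was larger, so the tested sets differ. limma 3.58.1 in R 4.3.3 was fitted to all 18 arrays with 1 mean per group (8 groups, 10 residual and 5.76 prior degrees of freedom), so that groups of 2 arrays share 1 estimate of the spread, with two-sided tests adjusted by the Benjamini-Hochberg method over the 3057 probe sets of each contrast. As arrays hold no counts, their number limits the precision. The medians of the arrays lay between 2.72 and 2.83, and 15% to 16.8% of probe sets reached a signal of 100. Gene names come from the annotation of the platform, where 19071 probe sets have 1 symbol, 1043 several and 2169 none. In gene lists the tested probe set with the highest mean stood for a gene.

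The rule for named genes covered the 15 largest called rises and falls of P/C that did not overlap between the times, 1 probe set a gene and with a group mean of at least 100, up to 4 called members of each list, called differences from untreated cells, and CDKN1A. Not all genes covered are named, and genes outside it are said to be so, are uncalled list members or are list members with a dimmer called probe set, named after its value was seen. The 38 gene lists, the comparison and this rule were chosen with earlier results of these data known, so no count of a list is independent evidence. The p53 transcript is not analysed here. Alternatives were no filter, a signal of at least 200, quantile normalization, median centring, a replicate block, array weights, the arrays of the comparison alone, no fold limit and each array of the compared groups left out.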

Additional observations from a re-analysis of the deposited data

Results flagged for a closer look

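For 3 results the change from 8 h to 24 h differed between groups by the limma test of the difference itself. The time change of DDIT4 with P/C was lower by 4.66 on the log2 scale than that of untreated cells (difference −4.66, SE 0.65, adjusted p = 0.00702), with untreated cells near the array medians at 8 h, so that its size depends on the background correction, and P/C cells near 8 at both times. Against cisplatin alone the difference for DDIT4 was −4.04 (SE 0.62, adjusted p = 0.023). The time change of RBBP6 with P/C was 2.36 above that of untreated cells (SE 0.36, adjusted p = 0.013). Both DDIT4 differences share the same P/C arrays. Against piroxicam alone the difference for DDIT4 was −0.58 and was not called (limma adjusted p = 0.826). DDIT4 was called in untreated cells with 2 arrays at each time, whose 24 h arrays were apart (8.39 and 6.65). No group had the 4 or more arrays needed to look for an array far from the others.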

How the results depend on the processing

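The 102 probe sets called between P/C 24 h and 8 h became 66 with a signal of at least 200, 7 with array weights, 27 with only the P/C arrays in the fit, and 225 with replicate 1 of P/C and of C at 24 h both left out, an alternative chosen after the data were seen. Leaving out 1 P/C array gave 6 to 166. Without a filter 95 of 22215 were called, 46 of them among the 102. The 2 differences from untreated cells became 0 without a filter or with only those arrays, 1 with a signal of at least 200 or with array weights, 24 without the pair of arrays and 0 to 13 with 1 array left out. The count of differences from P was 0 except without P/C 24 h replicate 3, so 0 to 96 with 1 array left out. The 1 difference from C became 0 without a filter, with array weights or with only those arrays, 2 with a signal of at least 200, quantile normalization or median centring, 8 without the pair of arrays, and 0 to 4 with 1 array left out. The causes were not tested.

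Replicate numbers 1 and 3 occur at both times, but what a number shares is not stated, so the numbers were not taken to pair arrays. P/C gives only 2 pairs, whose deviations from the group means correlated at 0.25, which does not decide whether they pair. With the replicate block 142 probe sets were called between the P/C times, all 102 among them, and it ended no call of a named gene. Of the 42 calls of named genes 37 were lost with array weights, 23 with only the P/C arrays, 19 without a filter and 1 each with quantile normalization and median centring, and no direction turned. Of these genes, IL1B was called in every alternative, and IL1B, HMMR and RBBP6 in every fit with 1 P/C array left out. Single arrays of other groups, which also enter the shared spread, were not left out for this comparison. The sign changed in 1 of the named results, DDIT4 between the P/C times, which ranged from −0.24 (without P/C 24 h replicate 3) to 0.82 (without P/C 24 h replicate 1) with 1 P/C array left out and was called in neither.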
